A study of Mus musculus with 10 samples.

Results

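Heterotrimeric G proteins carry the signal of a hormone receptor into the cell, and RGS proteins switch that signal off. The rows of the deposited count table whose symbol was Gnas, Gnai1, Gnai2, Gnai3, Gnaq, Gna11, Gnb1, Gnb2, Rgs2 or Rgs5 were taken, which gave 10 genes of 38355. All 10 passed the filter on low counts and were among the 12629 genes tested. They were compared in adult cardiomyocytes of Epac1-PLN transgenic FVB/N mice (5 libraries) and of wildtype FVB/N mice (5 libraries). Both groups held 2 males and 3 females, received no treatment, and gave their cells by Langendorff perfusion of the excised heart. Ages are not given in the labels. Epac1-PLN is a fluorescent cAMP sensor made in heart cells, whose name joins the cAMP-binding protein Epac1 and phospholamban. The labels name neither the promoter that drives it nor the transgenic line.

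An agonist-bound receptor makes the alpha subunit of its G protein exchange GDP for GTP and part from the beta-gamma pair. In heart muscle, the alpha subunit Gs stimulates adenylyl cyclase and so raises cAMP, and Gi inhibits it. The Gq family activates phospholipase C. RGS proteins speed GTP hydrolysis by alpha subunits of the Gi and Gq families. Of these inputs, Gs and Gi act on the cAMP that such a sensor reads. The comparison asks whether the transcripts of all these proteins differed in cells that carried the sensor.

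Library totals were 10632224 to 15959196 counts in Epac1-PLN cells and 13266303 to 20983754 counts in wildtype cells. Levels are in CPM, the usual counts-per-library-size unit, with library sizes scaled by TMM factors. Rapgef3, the gene for Epac1, had 1241 to 1741 CPM in the Epac1-PLN libraries and 10.4 to 15.9 CPM in the wildtype libraries, so each library matched its genotype label. The 14 cardiomyocyte markers, such as Myh6 and Tnnt2, summed to 135784 to 156569 CPM in the Epac1-PLN libraries and 139646 to 165589 CPM in the wildtype libraries. Markers of other heart cells were lower but present, and none had 0 counts in all libraries. Epac1-PLN replicate 4 was the library least like the rest, with a median Spearman correlation of 0.983. It also had the lowest cardiomyocyte sum and the highest pericyte, smooth muscle, endothelial and macrophage sums.

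The end of an alpha subunit touches the receptor and helps set which receptors it couples to. The last 33 coding bases before the stop codon of the 6 alpha subunit genes are shown because they set the families apart. They are GENCODE M21 reference sequences of the mm10 genome, not read from these FVB/N libraries, 5′ to 3′ on the coding strand, each within 1 exon. Capitals mark bases that differ from Gnai2 at the same place.
Gnas (chr2:174346353-174346385, plus strand): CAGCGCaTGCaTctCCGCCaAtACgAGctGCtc
Gnai1 (chr5:18267022-18267054, minus strand): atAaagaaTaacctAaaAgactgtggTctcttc
Gnai2 (chr9:107615638-107615670, minus strand): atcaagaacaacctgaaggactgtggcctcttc
Gnai3 (chr3:108109425-108109457, minus strand): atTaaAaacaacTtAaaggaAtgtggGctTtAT
Gnaq (chr19:16383359-16383391, plus strand): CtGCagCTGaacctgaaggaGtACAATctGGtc
Gna11 (chr10:81530798-81530830, minus strand): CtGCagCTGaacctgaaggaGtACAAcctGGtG
Gnas differed from Gnai2 at 22 of the 33 bases, Gnaq and Gna11 at 14 each, Gnai3 at 9 and Gnai1 at 5. Gnaq and Gna11 differed from each other at 2. The likeness within a family raises the question of shared reads, so all transcripts were compared as words of 50 bases. The members shared 0 such words with each other. Outside the family, 18.6% of the Gnas words also occurred in another gene, most of them in Gm20721, which lies antisense to it. Gm20721 overlaps 1469 exonic bases of Gnas and held 13 to 35 counts per library. The other 9 genes shared at most 1.92% of their words with any other gene.

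With genotype, 0 of the 10 genes passed the threshold of an adjusted p under 0.05 by edgeR's quasi-likelihood test with sex in the model. Over all genes tested, 0.641% passed. At an unadjusted p under 0.05 the count was also 0 of 10, against 12.2% of all genes. With DESeq2 and with limma-voom it was 0 as well, and their shares over all genes are not given here. The groups overlapped for every member. Over all genes 2.75% had groups of 5 libraries without overlap, so 0 of 10 members is near that share. In Epac1-PLN cells 7 members lay higher and 3 lower. Their median log2 fold change was 0.05, beside 0.00 over all genes, and their median absolute value was 0.08, beside 0.10 over all genes. The 95% intervals set how large a difference could still be present. The lowest bound was 0.757-fold, for Rgs5, and the highest 1.57-fold, for Rgs2.

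**Figure D1:**
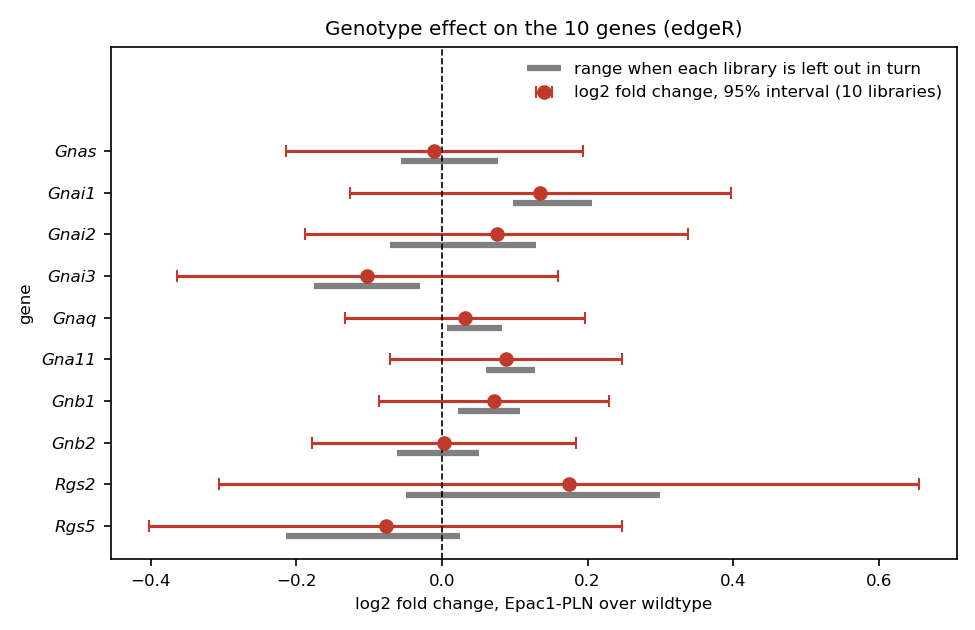
Log2 fold change of each gene, Epac1-PLN over wildtype, with its 95% interval (red) and the range when each of the 10 libraries is left out in turn (grey). All 10 intervals cross 0, and Rgs2 has the widest, from -0.31 to 0.65.

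Gnas encodes the stimulatory subunit Gs alpha at an imprinted locus with several start sites (ENSMUSG00000027523, chr2:174284320-174346744, plus strand, mm10). Its level was 116, 117, 141, 141 and 137 CPM in Epac1-PLN replicates 1 to 5, and 126, 118, 121, 127 and 166 CPM in wildtype replicates 1 to 5. Wildtype replicate 5 was the highest of all libraries, and the other wildtype libraries lay within the Epac1-PLN range. The means were 130.5 ± 12.8 CPM in the Epac1-PLN libraries and 132 ± 19.3 CPM in the wildtype libraries (SD, n = 5 each). The log2 fold change was -0.01 ± 0.09 (SE), with a 95% interval of 0.862-fold to 1.14-fold and an adjusted p of 0.985 (edgeR). Its sign turned to 0.02, 0.04 and 0.08 without Epac1-PLN replicate 1, Epac1-PLN replicate 2 and wildtype replicate 5. Counts per gene pool the products of all start sites of this locus.

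The inhibitory subunits were led by Gnai2 (ENSMUSG00000032562, chr9:107614138-107635342, minus strand). Gnai2 stood at 170.3, 149.7, 162, 239 and 166 CPM in Epac1-PLN replicates 1 to 5, and at 175, 188, 175, 151 and 155 CPM in wildtype replicates 1 to 5. Epac1-PLN replicate 4 lay above every other library, and the remaining Epac1-PLN libraries overlapped the wildtype range. The log2 fold change was 0.08 ± 0.12 (SE, adjusted p = 0.881, edgeR). Without Epac1-PLN replicate 4 it was -0.07.

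Gnai3 (ENSMUSG00000000001, chr3:108107280-108146146, minus strand) also encodes an inhibitory alpha subunit. It had 15.2 to 21.4 CPM in the Epac1-PLN libraries and 14.6 to 24.0 CPM in the wildtype libraries (log2 fold change -0.10 ± 0.12 SE, adjusted p = 0.812, edgeR). Gnai1 (ENSMUSG00000057614, chr5:18265135-18360413, minus strand), the isoform best known from brain, had 5.84 to 8.26 CPM in the Epac1-PLN libraries and 6.14 to 7.48 CPM in the wildtype libraries (0.13 ± 0.12, adjusted p = 0.727, edgeR). Its counts were 63 to 129 per library, the fewest of the 10 genes. Per kilobase of exons, Gnai2 held 85.4 ± 2.44% of the 3 isoforms in Epac1-PLN cells and 84.7 ± 1.799% in wildtype cells (SD, n = 5 each). Gnai3 held 10.2 ± 1.87% in Epac1-PLN cells and 11.2 ± 1.52% in wildtype cells, and Gnai1 4.36 ± 0.835% in Epac1-PLN cells and 4.08 ± 0.417% in wildtype cells.

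Gnaq and Gna11 encode the alpha subunits that link alpha1-adrenergic, angiotensin and endothelin receptors to phospholipase C. Gna11 (ENSMUSG00000034781, chr10:81528724-81545190, minus strand) stood at 76.9, 74.4, 86.6, 86.8 and 85.7 CPM in Epac1-PLN replicates 1 to 5. In wildtype replicates 1 to 5 it stood at 80.6, 71.7, 72.7, 75.5 and 85.8 CPM. Epac1-PLN replicates 3, 4 and 5 and wildtype replicate 5 were the highest libraries, and the ranges overlapped. Its log2 fold change of 0.09 ± 0.07 (SE) had the smallest p of the 10 genes, with an unadjusted p of 0.256 and an adjusted p of 0.708 (edgeR). Gnaq (ENSMUSG00000024639, chr19:16132831-16387463, plus strand) had 26.6 to 30.3 CPM in the Epac1-PLN libraries and 26.7 to 31.5 CPM in the wildtype libraries (log2 fold change 0.03 ± 0.08, adjusted p = 0.931, edgeR). Per kilobase of exons, Gna11 made up 81.1 ± 0.428% of the pair in Epac1-PLN cells and 80.5 ± 2.12% in wildtype cells.

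Gnb1 and Gnb2 encode beta subunits, which hold the alpha subunit at rest and act on channels and kinases once freed. Gnb1 (ENSMUSG00000029064, chr4:155491361-155559269, plus strand) had 103, 95.8, 107, 119 and 114 CPM in Epac1-PLN replicates 1 to 5, and 107, 109, 107, 98.9 and 91.6 CPM in wildtype replicates 1 to 5. Both groups spanned similar ranges, with Epac1-PLN replicates 4 and 5 the highest libraries. The log2 fold change was 0.07 ± 0.07 (SE, adjusted p = 0.770, edgeR). Gnb2 (ENSMUSG00000029713, chr5:137528127-137533510, minus strand) averaged 110.2 ± 7.37 CPM in the Epac1-PLN libraries and 109.95 ± 12.2 CPM in the wildtype libraries. Its log2 fold change was 0.00 ± 0.08 (adjusted p = 0.995, edgeR), with a 95% interval of 0.884-fold to 1.14-fold. The sign turned to -0.04, -0.02 and -0.06 without Epac1-PLN replicate 4, wildtype replicate 2 and wildtype replicate 4, and to -0.01 with upper-quartile factors and with no filter on low counts.

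Rgs2 encodes a regulator that acts chiefly on Gq alpha and is known as a gene induced by cAMP (ENSMUSG00000026360, chr1:143999338-144004161, minus strand). It was the least even of the 10 genes among Epac1-PLN libraries. Rgs2 stood at 53.0, 47.2, 108, 63.2 and 74.3 CPM in Epac1-PLN replicates 1 to 5, and at 69.7, 47.2, 61.6, 57.3 and 70.2 CPM in wildtype replicates 1 to 5. Epac1-PLN replicate 3 exceeded all other libraries, and the remaining ones of both groups overlapped. The log2 fold change of 0.17 ± 0.21 (SE, adjusted p = 0.825, edgeR) was the largest of the 10 genes. It was -0.05 without Epac1-PLN replicate 3.

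The start-site region of Rgs2 is shown because cAMP acts on genes through CREB, which binds the cAMP response element. The window reaches from 250 bases before to 50 bases after the RefSeq start (GRCm38.p6, chr1:144004100-144004399, minus strand, 5′ to 3′). Capitals mark the core motif TGACG of that element and its reverse complement CGTCA, searched on both strands.
Rgs2: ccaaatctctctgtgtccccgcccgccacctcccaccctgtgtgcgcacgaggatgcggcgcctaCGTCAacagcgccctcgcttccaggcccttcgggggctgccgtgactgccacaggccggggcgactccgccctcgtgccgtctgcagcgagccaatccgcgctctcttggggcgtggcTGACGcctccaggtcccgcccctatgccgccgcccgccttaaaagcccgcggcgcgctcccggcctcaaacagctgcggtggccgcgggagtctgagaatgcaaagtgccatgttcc
The Rgs2 window held the motif at 2 places, which do not overlap. RefSeq windows were at hand for 9 of the 10 genes, 12 windows in all, and 7 of them held the motif, for 5 genes (Gnas, Gnai3, Gnb1, Gnb2 and Rgs2). Gnas had several windows, some of which overlap, so that their matches are not separate sites. Of all 32851 windows searched, 20.8% held it. The full element TGACGTCA was in 0 of the 12 windows and in 1.79% of all windows. A match is a string of letters and was not tested as a binding site.

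Rgs5 encodes a regulator of Gi and Gq alpha that is best known as a marker of pericytes, the contractile cells around capillaries (ENSMUSG00000026678, chr1:169655501-169695813, plus strand). Rgs5 had 289, 218, 224, 323 and 265 CPM in Epac1-PLN replicates 1 to 5, and 312, 400.0, 273, 244 and 192 CPM in wildtype replicates 1 to 5. The wildtype libraries held both the highest and the lowest value, and the Epac1-PLN range lay inside theirs. The means were 264 ± 44.0 CPM in the Epac1-PLN libraries and 284 ± 78.2 CPM in the wildtype libraries (SD, n = 5 each). The log2 fold change was -0.08 ± 0.15 (SE, adjusted p = 0.907, edgeR). It was -0.21 without Epac1-PLN replicate 4 and 0.03 without wildtype replicate 2.

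**Figure D2:**
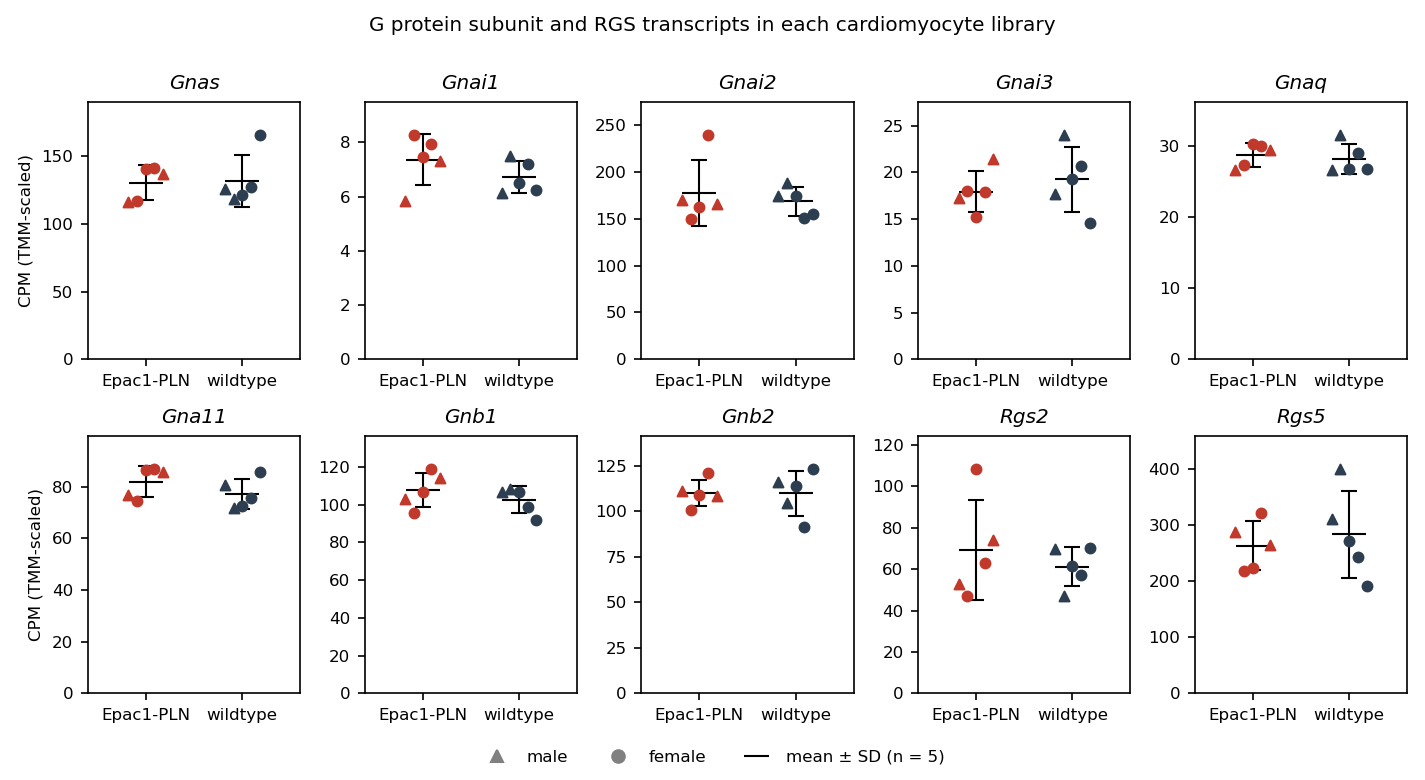
CPM of each gene in the 5 Epac1-PLN libraries (red) and the 5 wildtype libraries (dark blue), with males as triangles, females as circles, and bars for mean ± SD. The groups overlap in every panel. Epac1-PLN replicate 4 stands out for Gnai2 (239 CPM) and Epac1-PLN replicate 3 for Rgs2 (108 CPM).

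Levels of different genes were compared per kilobase of the union of all annotated exons. On this scale the order was Rgs5, Gnai2, Gnb2, Gnb1, Gna11, Rgs2, Gnas, Gnai3, Gnaq and Gnai1. Rgs5 had a level of 58.1 ± 9.67 CPM per kilobase in Epac1-PLN cells and 62.5 ± 17.2 in wildtype cells. Gnai1 had a level of 2.35 ± 0.297 CPM per kilobase in Epac1-PLN cells and 2.14 ± 0.190 in wildtype cells (SD, n = 5 each). The upper gene was higher in 10 of 10 libraries for 7 of the 9 neighbouring pairs. The exceptions were Gna11 over Rgs2 and Gnai3 over Gnaq, with 9 of 10 libraries each. The ranges over all 10 libraries were apart for Gnai2 over Gnb2, Gnb1 over Gna11, Gnas over Gnai3 and Gnaq over Gnai1, and overlapped for the other neighbours.

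Between these ends, Gnai2 had a level of 47.0 ± 9.39 CPM per kilobase in Epac1-PLN cells and 44.6 ± 4.12 in wildtype cells. The beta subunit genes followed, with Gnb2 at 32.4 ± 2.17 in Epac1-PLN cells and 32.3 ± 3.59 in wildtype cells. Per kilobase of exon union, Gnb2 made up 56.2 ± 1.17% of the sum of Gnb1 and Gnb2 in Epac1-PLN cells and 57.3 ± 3.51% in wildtype cells. Both Gnai3 and Gnaq stood below 10 CPM per kilobase in each genotype, with Gnaq at 4.65 ± 0.267 in Epac1-PLN cells and 4.56 ± 0.344 in wildtype cells.

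The place of Gnas depended on the length used. Its exon union of 11.186 kb takes in all start sites, whereas its longest principal transcript has 3.903 kb. Per kilobase of exon union, Gnas had a level of 11.7 ± 1.14 in Epac1-PLN cells and 11.8 ± 1.73 in wildtype cells. Per kilobase of the principal transcript, it had 33.4 ± 3.28 in Epac1-PLN cells and 33.7 ± 4.94 in wildtype cells, close to Gnb1, which Gnas exceeded in 3 of 10 libraries. On that second scale Gnai2 was above Rgs5 in 9 of 10 libraries. Gnai2 was the highest of the 6 alpha subunit genes and Gnai1 the lowest on both scales. The isoform shares also depended on the length. By principal transcript, Gnai2 held 90.9 ± 1.62% of the inhibitory isoforms in Epac1-PLN cells and 90.4 ± 1.21% in wildtype cells. Gnb2 then held 63.4 ± 1.11% of its pair in Epac1-PLN cells and 64.3 ± 3.27% in wildtype cells. Gna11 held 82.5 ± 0.404% of its pair in Epac1-PLN cells and 81.8 ± 2.00% in wildtype cells.

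**Figure D3:**
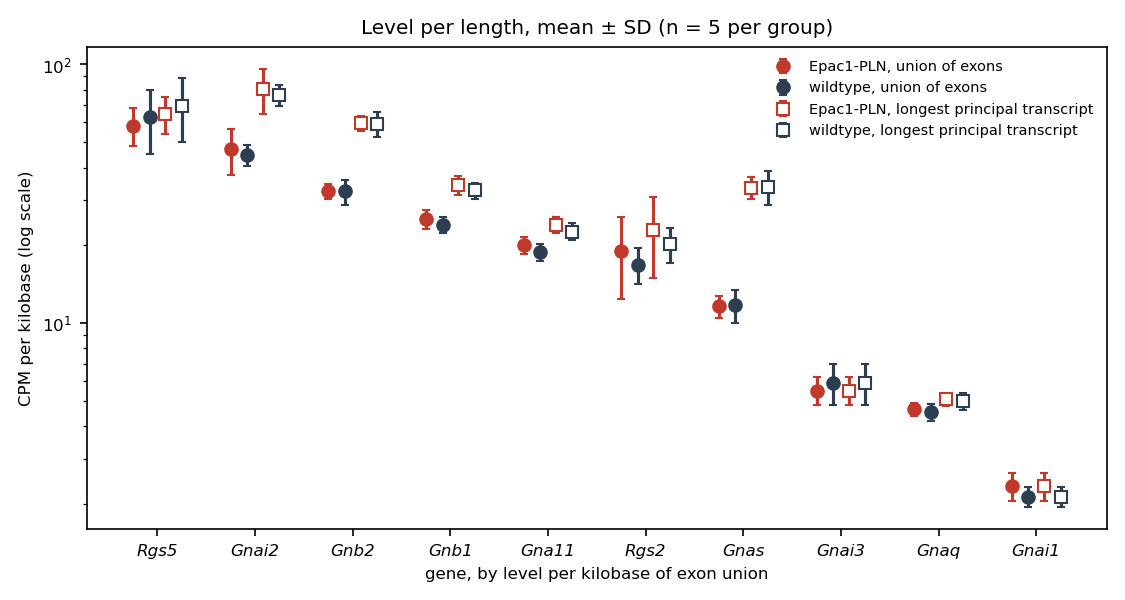
Level of each gene in CPM per kilobase on a log axis, mean ± SD of 5 Epac1-PLN libraries (red) and 5 wildtype libraries (dark blue), by the union of exons (filled circles) and by the longest principal transcript (open squares). The genotypes lie close together for each gene, and Gnas shows the largest shift between the length definitions, from 11.8 to 33.7 CPM per kilobase in wildtype cells.

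Ratios of member pairs within a library do not depend on the scaling between libraries. The ratio of Gnas to Gnai2 counts, not divided by length, sets the stimulatory against the main inhibitory subunit. It averaged -0.43 ± 0.23 on the log2 scale in Epac1-PLN cells and -0.36 ± 0.30 in wildtype cells (SD, n = 5 each). The difference of -0.07 had a p of 0.722 by an exact 2-sided permutation test. It was 0.02 without Epac1-PLN replicate 4 and 0.05 without wildtype replicate 5. Gnai2 varied together with markers of vessel cells, as given below, and the part of those cells in this ratio was not tested.

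The other ratios set isoforms or regulators against each other. Their log2 differences, Epac1-PLN minus wildtype, were 0.15 for Gnai2 to Gnai3, -0.06 for Gnaq to Gna11, 0.06 for Gnb1 to Gnb2 and -0.21 for Rgs5 to Rgs2. Their exact permutation p-values were 0.437, 0.548, 0.627 and 0.603. After Benjamini-Hochberg adjustment over the 5 ratios each p was 0.722. The smallest p that 5 against 5 libraries allow is 0.00794. The spread of the Gnaq to Gna11 ratio was narrow in Epac1-PLN cells, with a log2 value of -1.51 ± 0.04, against -1.45 ± 0.19 in wildtype cells. The difference between these spreads was not tested.

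With sex, 0 of the 10 genes passed by edgeR with genotype in the model, where 0.34% of all genes did. At an unadjusted p under 0.05 there was 1 of 10, Rgs5, against 10.4% of all genes. Rgs5 averaged 246 ± 46.4 CPM in 6 females and 316 ± 58.8 CPM in 4 males (SD). The log2 fold change, female over male, was -0.36 ± 0.15 (SE, adjusted p = 0.433, edgeR), and -0.37 with an adjusted p of 0.00159 (edgeR) when no filter on low counts was set. The share of all genes called with sex in that setting is not given here. With genotype, that setting called 2.26% of all genes, against 0.641% with the filter. Fibroblast markers summed to 563 to 815 CPM in females and 669.7 to 915 CPM in males, and 2 of the 12 were called with sex by edgeR. The pericyte sum was 119.6 ± 36.7 CPM in females and 135 ± 23.6 CPM in males, and the endothelial sum 893 ± 268 CPM in females and 1041 ± 176 CPM in males (SD), with 0 markers called. The part of these cells in the Rgs5 values by sex was not tested. The sex fold changes of the other 9 genes lay between -0.19 for Gnai3 and 0.15 for Rgs2 on the log2 scale. For the genotype-by-sex term, 0 of 10 genes passed by edgeR, by DESeq2 and by limma-voom. Over all genes the share was 0% in edgeR, so the edgeR count says nothing particular to the members. The shares over all genes with DESeq2 and limma-voom are not given here. In edgeR 0 of 10 members had an unadjusted p under 0.05 for that term, against 3.75% of all genes. The smallest unadjusted p for that term was 0.114, for Rgs5.

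Gnai2 and Rgs5 varied across libraries together with markers of vessel cells. The fibroblast, smooth muscle and macrophage sums were not set against the members. Whether the pattern is particular to vessel cells was therefore not tested. Gnai2 and the summed level of 9 pericyte markers, among them Pdgfrb and Kcnj8, had a Pearson r of 0.935 and a Spearman rho of 0.976 over the 10 libraries. The permutation p-values were 1e-05, the smallest that 100000 resamples give, for r and 3e-05 for rho, and 0.00015 and 0.0009 after adjustment over 30 relations. With 12 endothelial markers, among them Pecam1 and Cdh5, r was 0.917 and rho 0.952 (permutation p = 1e-05 and 0.00011, adjusted 0.00015 and 0.00165). Without the 2 libraries farthest from the median of the markers, Epac1-PLN replicate 4 and wildtype replicate 2, r was 0.949 for the pericyte and 0.918 for the endothelial sum. Within the 6 females r was 0.982 and 0.986, and the 4 males were too few for a value.

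Rgs5 was not in the pericyte list. Its r was 0.834 with the pericyte sum and 0.842 with the endothelial sum, and its rho 0.891 and 0.903 (permutation p = 0.00256 and 0.00191 for r, 0.00114 and 0.00073 for rho). The adjusted p-values were 0.0192 and 0.0191 for r, and 0.00855 and 0.0073 for rho. Without the same 2 libraries r was 0.814 and 0.822, and within the 6 females 0.893 and 0.875. With the cardiomyocyte sum, r was -0.817 for Rgs5 and -0.761 for Gnai2 (permutation p = 0.00379 and 0.00567, adjusted 0.0227 and 0.0283). The rho values were -0.867 and -0.648 (permutation p = 0.00213 and 0.0483, adjusted 0.0128 and 0.181). Without the same 2 libraries r was -0.717 for Rgs5 and -0.362 for Gnai2, so the Gnai2 relation over all libraries rested on them. Within the 6 females, which include Epac1-PLN replicate 4, it was -0.924 for Rgs5 and -0.842 for Gnai2.

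Of the other members, Gnb1 had an r of 0.76 with the endothelial sum (permutation p = 0.0105, adjusted 0.0449), with a rho of 0.685 (permutation p = 0.0341, adjusted 0.146) and an r of 0.615 without the same 2 libraries and 0.926 within the 6 females. Gnb1 and the pericyte sum had an r of 0.721 (permutation p = 0.0182, adjusted 0.0684) and a rho of 0.697 (permutation p = 0.0303, adjusted 0.146). Without the same 2 libraries r was 0.528, and within the 6 females 0.869. With the cardiomyocyte sum, Gnb1 had an r of -0.652 (permutation p = 0.0398, adjusted 0.133). The rho was -0.539 (permutation p = 0.113, adjusted 0.376). This r was -0.397 without the same 2 libraries and -0.848 within the 6 females. The remaining 7 members had adjusted p-values of 0.399 or more for each of the 3 sums. Some of their values moved far without the same 2 libraries. There r was -0.786, against 0.0621 over all 10, for Gnai1 with the pericyte sum. For Gnas with the cardiomyocyte sum it was 0.808, against 0.462 over all 10. All these values share the scaling of their library. The pericyte and endothelial sums were both highest in Epac1-PLN replicate 4 and both lowest in Epac1-PLN replicate 2. Their relations are thus not independent of each other. How many of all tested genes follow these sums as closely was not counted. In bulk libraries, more cells of a type and more RNA per cell cannot be told apart, and the part of vessel cells in the Gnai2 and Rgs5 levels was not tested.

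The pericyte sum was 86.4 to 188 CPM in the Epac1-PLN libraries and 99.996 to 167 CPM in the wildtype libraries, with 0 of 9 markers called. The endothelial sum was 656 to 1399 CPM in the Epac1-PLN libraries and 733 to 1252 CPM in the wildtype libraries, with 0 of 12 called. Of the 7 smooth muscle, 12 fibroblast and 10 macrophage markers tested, 0 were called with genotype, and their sums overlapped between the groups. Of the 14 cardiomyocyte markers 0 were called with genotype. At an unadjusted p under 0.05 in edgeR there were 2 of the 14 cardiomyocyte and 1 of the 12 fibroblast markers. There were 0 of the pericyte, endothelial, smooth muscle and macrophage markers. Over all genes the share was 12.2%. Smooth muscle markers summed to 297 to 550 CPM in the Epac1-PLN libraries and 191 to 543 CPM in the wildtype libraries. Fibroblast markers summed to 584 to 858 and macrophage markers to 41.5 to 84.1 CPM in Epac1-PLN cells. In wildtype cells these sums were 563 to 915 CPM for fibroblast markers and 33.6 to 67.3 CPM for macrophage markers.

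**Figure D4:**
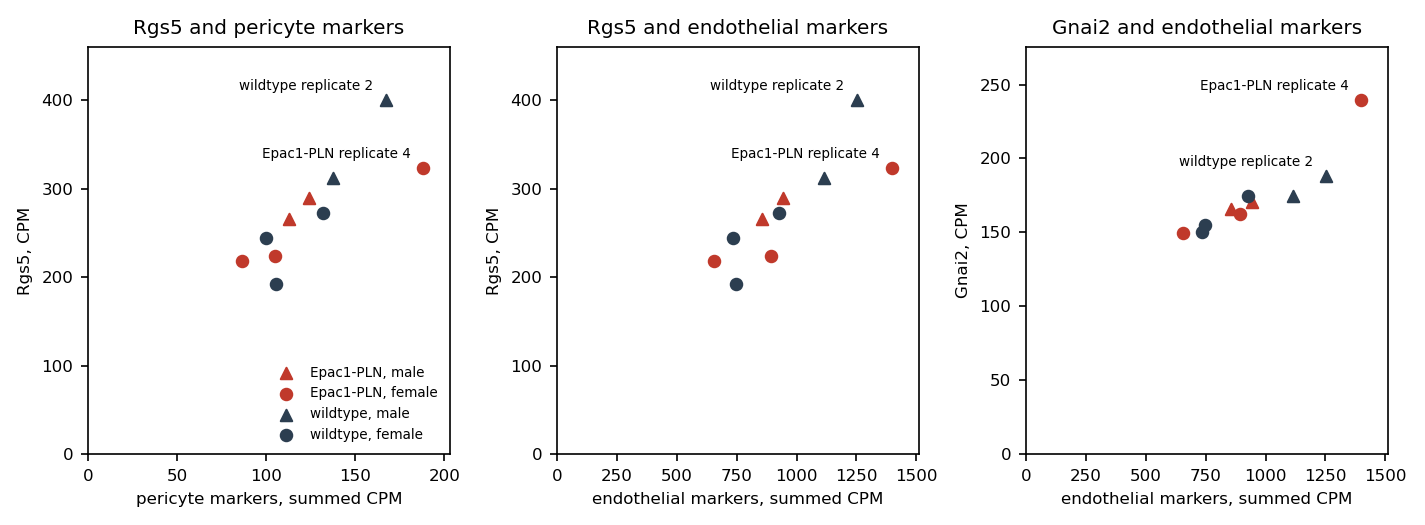
Rgs5 or Gnai2 (CPM, vertical) against the summed CPM of pericyte or endothelial markers (horizontal) in each of the 10 libraries, by genotype (colour) and sex (shape). Epac1-PLN replicate 4 (Gnai2 at 239 CPM) and wildtype replicate 2 (Rgs5 at 400.0 CPM) have the highest marker sums, and slopes were not compared between genotypes.

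The genes whose levels across the 10 libraries were most like those of Gnas, Rgs2 and Rgs5 were taken by Pearson's r of log2 CPM, as a description. For Rgs5 they were Gimap4 (r = 0.970), Akr1c14 (0.969) and Gng11 (0.966), which encodes a G protein gamma subunit. For Gnas they were Gsk3a (0.947), Abcf2 (0.927) and Ran (0.920). For Rgs2 they were Trip10 (0.884), Rpl8 (0.879) and 2410131K14Rik (0.873). The 3 values were lower for Rgs2 than for Gnas and Rgs5.

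Of 78 tested genes in 8 lists of the G protein machinery, 0 were called with genotype by edgeR, by DESeq2 and by limma-voom, and 4 were called by edgeR with no filter on low counts. These 4, named after their values were seen, were Grk5 (log2 fold change -0.43), Adrb1 (-0.41), Gng7 (0.73) and the alpha1-adrenergic receptor gene Adra1b (-0.31), or 5.13% of the 78. In that setting 2.26% of all genes were called. Of the other alpha subunits 4 of 10 were tested and 0 called with genotype. Gna12 led them per kilobase with 228 ± 14.0 CPM in the Epac1-PLN libraries and 249.5 ± 22.1 CPM in the wildtype libraries (log2 fold change -0.13 ± 0.07 SE). Gna13, of the same family, had a log2 fold change of 0.02 and Gnao1, a Gi relative abundant in neurons, of -0.08. Of the other beta subunits 3 of 3 were tested and 0 called, with log2 fold changes of -0.12 for Gnb3, 0.05 for Gnb5 and -0.22 for Gnb4. Among 7 tested gamma subunits 0 were called, and Gng11, Gng5 and Gng12 had log2 fold changes of 0.02, -0.06 and -0.02.

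Of 8 tested other RGS genes 0 were called, 6 lay lower, and the median log2 fold change was -0.13. The highest per kilobase were Rgs4 (-0.09), Rgs12 (-0.16) and Rgs19. Rgs19, which acts on Gi family alpha subunits, had 3.29 ± 0.573 CPM in the Epac1-PLN libraries and 4.24 ± 0.495 CPM in the wildtype libraries (log2 fold change -0.36 ± 0.16 SE, adjusted p = 0.374, edgeR). Of 11 chaperones and modulators 0 were called. The chaperonin gene Cct2, Gpsm1 and Nucb1 had log2 fold changes of 0.05, -0.05 and 0.09.

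Among 7 receptor kinases and arrestins 0 were called. Adrbk1 and Adrbk2, kinases that beta-gamma brings to active receptors, had log2 fold changes of 0.14 ± 0.07 and 0.24 ± 0.10 (SE), and Grk6 of -0.15 ± 0.08. Adjusted p-values of these genes were 0.419, 0.352 and 0.512 (edgeR). Of 19 tested effectors 0 were called. Adcy6, a main cardiac adenylyl cyclase, stood at 311 ± 42.5 CPM in the Epac1-PLN libraries and 260.4 ± 38.6 CPM in the wildtype libraries (0.27 ± 0.10 SE, adjusted p = 0.260, edgeR). Arhgef12, a guanine nucleotide exchange factor downstream of Gna12 and Gna13, had a log2 fold change of 0.23 and Kcnj5, a subunit of the beta-gamma-gated potassium channel, of 0.05. Of 19 tested receptors 0 were called, and the acetylcholine receptor gene Chrm2, the purine receptor gene P2ry2 and the angiotensin receptor gene Agtr1a had log2 fold changes of -0.06, -0.03 and -0.11.

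An unadjusted p under 0.05 was reached by 8 of these 78 genes in edgeR, by 6 in DESeq2 and by 8 in limma-voom. The share over all genes is given for edgeR only. The edgeR share of 10.3% lay below the 12.2% of all genes tested, so the single genes are given as values only. In edgeR they included Rgs19, Adrbk2, Adcy6 and Arhgef12, and, named after their values were seen, the gamma subunit gene Gng7 (log2 fold change 0.74), the receptor kinase gene Grk5 (-0.42) and the beta-adrenergic receptor gene Adrb1 (-0.40). The adjusted p-values of these 7 genes ranged from 0.199 for Grk5 to 0.374 for Rgs19 (edgeR), and the groups overlapped for each of the 7.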

How the data were processed

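The transcripts of 10 cardiomyocyte libraries were sequenced, 5 biological replicates for each genotype. Per the labels' protocols, total RNA went into a TruSeq kit and the libraries ran on a HiSeq2000 instrument. The first deposited table holds raw counts for Ensembl genes. The other holds a normalized signal that the authors obtained by dividing the counts of a library by a single factor. Those factors equalled DESeq2 median-of-ratios size factors to within a relative difference of 3.33e-16; that table served for this check. The submitters' processing notes name the mm10 build and the tools STAR 2.3.0, CASAVA 1.8.2, DESeq2, HTSeq 0.5.4, FastQC 0.10.0 and DESeq, without saying what each did. The sources used here give neither strand use, read length nor annotation, so overlapping genes may share reads. Counts carried no molecular identifiers as far as the sources say.

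Genes were filtered with filterByExpr on genotype and scaled by TMM in edgeR 4.0.16 under R 4.3.3. The quasi-likelihood F test with robust dispersions had sex and genotype as terms, and p-values were adjusted over all 12629 genes by Benjamini-Hochberg at 0.05. A called gene is past this threshold. SE is the absolute log2 fold change over the square root of F. Intervals of 95% use the test's degrees of freedom. Alternatives were DESeq2 1.42.0, limma 3.58.1 voom, other scaling, filters and covariates, each library dropped once, females by themselves, and a replicate block. Gene coordinates are those of the deposited table. Level per kilobase used GENCODE M21 exon lengths, and the longest principal transcript as an alternative chosen after seeing the data. Of the 38355 gene identifiers 36602 were in GENCODE M21, and 25481 had identical coordinates there. Among the members, the coordinates of Gnai1 and Gnai2 differed, so their exon lengths may not match the counted gene models. The 5 ratios and 30 relations used permutation tests over libraries. Within a genotype, the 20 pairs of libraries differed beyond sampling noise (chi-square per degree of freedom 7.55 to 30.3). The test was also run on simulated data with 200 changed genes, and its outcome is not given here.

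Named genes were the members, the 3 tested genes of each pathway list with the highest level per kilobase, any called gene, and the 3 genes most alike Gnas, Rgs2 and Rgs5. The members and lists were chosen with earlier results of these data known. A gene of the pathway lists is not reported here.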

Additional observations from a re-analysis of the deposited data

Results flagged for a closer look

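In 3 of 42 groups of 5 libraries, a library lay farther from the others than Dixon's test allows at 5%; chance flags about 1 in 20 such groups. Gnai2 was at 239 CPM in Epac1-PLN replicate 4, against 149.7 to 170.3 CPM in the other Epac1-PLN libraries. That library also had the highest endothelial sum (1399 CPM) and pericyte sum (188 CPM) of all 10. The part of these cells in its Gnai2 level was not tested.

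Gnas was at 166 CPM in wildtype replicate 5, against 118 to 127 CPM in the other wildtype libraries. This library had the highest cardiomyocyte sum, 165589 CPM, and the lowest smooth muscle and fibroblast sums, 191 and 563 CPM. Over the 10 libraries, Gnas and the cardiomyocyte sum had an r of 0.462 (permutation p = 0.178, adjusted 0.426). The part of these cells in its Gnas level was not tested. The log2 ratio of Gnaq to Gna11 counts was -1.44 in Epac1-PLN replicate 2, against -1.54 to -1.52 in the other Epac1-PLN libraries.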

How the results depend on the processing

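Under 19 alternatives, 0 of the 10 members were called with genotype and 0 had an unadjusted p under 0.05. With sex, 1 member, Rgs5, was called when no filter on low counts was set, where the share of all genes called with sex is not given here. The number of all genes called with genotype, 81 as reported, was 265 with DESeq2, 498 with no filter, 37 without sex as a term, 4 in females only and 2 with the replicate block. It was 14 to 103 with 1 library dropped at a time, lowest without wildtype replicate 1. The causes were not tested. The replicate numbers were not found to pair the samples. Residuals of same-numbered libraries correlated at -0.34 to 0.35, with the own number highest for replicate 5 alone, and the block changed no call of a member.

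Uncalled values changed sign in these cases. Genotype log2 fold changes with 1 library dropped ranged from -0.056 to 0.077 for Gnas, -0.071 to 0.13 for Gnai2, -0.061 to 0.051 for Gnb2, -0.049 to 0.30 for Rgs2 and -0.21 to 0.025 for Rgs5. Gnb2 was at -0.013 with upper-quartile factors and -0.0094 with no filter, and Rgs5 at 0.12 in females only. Sex log2 fold changes, female over male, ranged from -0.15 to 0.023 for Gnai2, -0.060 to 0.048 for Gnaq, -0.011 to 0.060 for Gna11, -0.043 to 0.046 for Gnb2 and -0.036 to 0.28 for Rgs2. With the block they were -0.041 for Gnai1, 0.064 for Gnb2 and -0.039 for Rgs2. Differences in log2 ratio ranged from -0.14 to 0.049 for Gnas to Gnai2, -0.11 to 0.010 for Gnaq to Gna11, -0.021 to 0.11 for Gnb1 to Gnb2 and -0.39 to 0.026 for Rgs5 to Rgs2. In females only, Gnaq to Gna11 was at 0.0018. Depth was lowest for Gnai1, with 63 to 129 counts per library.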
